A study of Mus musculus with 12 samples.

Results

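The ABC (ATP-binding cassette) family was followed in RNA-seq of mouse gonadal white adipose tissue. Members were taken by symbol, as every gene named Abca to Abcg followed by a number. This gave 48 genes of 32772 listed in the deposited count tables, and 46 of the 48 are listed in both tables. Abcg4 is listed only in the table of uninjected mice and Abca12 only in the table of injected mice. By subfamily the members are 15 of A, 9 of B, 10 of C, 4 of D, 1 of E, 3 of F and 6 of G.

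The 12 libraries form 4 groups of 3, all from C57BL/6N mice that were 6 weeks old when an 18-week diet began. Chow and HFD mice received chow or a high-fat diet, and no injection is stated for them. HFD Vehicle mice were fed the high-fat diet and injected intraperitoneally with 30% DMSO in corn oil once a day for 4 days. HFD PCN mice were fed the same diet and received 50 mg/kg of PCN (pregnenolone 16alpha-carbonitrile, a ligand of the rodent pregnane X receptor) by the same route and schedule. All groups except Chow therefore share the high-fat diet. Nothing in the labels ties a library to its own animal, and the p-values therefore cover the spread between these samples only, which may be technical.

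ABC proteins bind and hydrolyse ATP on paired nucleotide-binding domains. Most use this to move lipids, drugs, peptides or conjugates across a membrane, either as full transporters or as half-transporters that pair up. The sulfonylurea receptors instead regulate potassium channels, and the E and F subfamilies have no membrane-spanning part and act on ribosomes. In adipose tissue the family is best known for cholesterol efflux through ABCA1 and ABCG1 and for the entry of fatty acyl-CoA into peroxisomes through the D subfamily.

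Depth and the share of mitochondrially encoded genes differed between the diet groups. Chow libraries held 11702225 to 13756819 counts, 7.30 to 29.6% of them mitochondrial, and HFD libraries 16646176 to 27408092 counts, 2.30 to 2.74% mitochondrial. Within Chow the share was 7.30% in Chow 8, 10.6% in Chow 17 and 29.6% in Chow 19, which stood apart. In the injected libraries depth was 11090117 to 26014587 counts and the share 2.78 to 7.85%, both extremes of low depth and high share being HFD Vehicle 50. With mitochondrially encoded genes left out, the same 27 members were called between the diets, as they were without Chow 19. Leaving those genes out does not remove other differences between the libraries. The parts of the mitochondrial share and of depth were therefore not tested. Per the source label the tissue is duodenum, whereas the series title names gonadal fat. Of the marker genes checked, 9 adipocyte markers summed to 6457 to 20555 CPM (counts scaled to a common library size) and 6 intestinal epithelial markers to 10.4 to 52.5 CPM across the libraries. Those 6 are the listed ones of 8 intestinal markers chosen. They summed to 34.0 to 52.5 CPM in Chow and 10.4 to 10.7 CPM in HFD, and all 3 tested were called lower in HFD. HFD Vehicle 50 stood apart from the other HFD libraries. Of the 9645 genes called between HFD and Chow that both tables list, it lay nearer the Chow mean than the HFD mean in 86.2%, against 9.57% in HFD Vehicle 23 and 12.4% in HFD Vehicle 55, so values without it are given beside the members named in those comparisons. In bulk tissue, fewer cells of a type and less RNA per cell cannot be told apart.

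Levels are given as CPM scaled over all 12 libraries. On that scale HFD lies 0.12 higher against Chow, as a median log2 value over all genes tested, than in the 6-library edgeR fit that gives fold changes. Fold changes and calls are therefore read from the fit, not from the CPM. Whether libraries overlap is judged on the CPM. A gene was called at an adjusted p under 0.05.

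To show the start regions of a neighbouring pair called in opposite directions between the diets, although the call of Abcb1b was lost in 7 of 12 alternatives, and of the most abundant member, 3 windows of 250 bases before the RefSeq start (GRCm38.p6) are printed 5′ to 3′. They are Abcb1b (chr5:8797897-8798146, + strand), Abcb4 (chr5:8893471-8893720, + strand) and Abca1 (chr4:53159896-53160145, - strand). Capitals mark the GC box GGGCGG, the letters CCAAT, the letters TATAAA of a core promoter element and the E-box letters CACGTG, on either strand.
Abcb1b: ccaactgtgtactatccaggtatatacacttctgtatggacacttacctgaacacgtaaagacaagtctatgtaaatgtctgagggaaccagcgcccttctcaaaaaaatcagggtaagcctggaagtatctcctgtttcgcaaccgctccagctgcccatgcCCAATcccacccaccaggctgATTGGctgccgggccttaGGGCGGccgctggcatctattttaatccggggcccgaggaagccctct
Abcb4: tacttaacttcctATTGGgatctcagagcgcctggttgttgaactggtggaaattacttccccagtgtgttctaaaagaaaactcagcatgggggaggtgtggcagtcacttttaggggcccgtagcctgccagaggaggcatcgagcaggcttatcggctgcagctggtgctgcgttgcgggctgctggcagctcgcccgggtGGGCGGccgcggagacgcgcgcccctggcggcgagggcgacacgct
Abca1: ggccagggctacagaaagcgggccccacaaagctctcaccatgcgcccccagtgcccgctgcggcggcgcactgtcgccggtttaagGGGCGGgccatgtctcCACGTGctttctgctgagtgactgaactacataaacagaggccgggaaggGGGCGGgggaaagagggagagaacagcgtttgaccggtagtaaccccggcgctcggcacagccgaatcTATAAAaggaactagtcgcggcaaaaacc
Abcb1b and Abcb4 each held 1 GC box at a similar distance, with the first base at -48 and -46 from the start. Abcb1b also held CCAAT boxes at -87 and, on the reverse strand, at -66, while that of Abcb4 lay at -237. The RefSeq window of the third neighbour, Abcb1a, held none of these motifs and is not printed, since it ends at 8567090, upstream of the gene's deposited start at 8660077. In the Abca1 window there were GC boxes at -163 and -97, an E-box at -147 and a TATA box at -29. RefSeq windows matched 36 of 48 members, in 43 windows. GC boxes occurred in 20 of the 43 and in 32.7% of all 32851 windows, CCAAT boxes in 13 and 33.8%, TATAAA in 5 and 12.4%, and CACGTG in 4 and 6.02%. Nuclear receptor half-sites (AGGTCA) were found in 7 of the 43 and in 14% of all windows.

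The family was broadly detected. At least 1 CPM was reached in every library listed by 34 of 48 members, and 36 passed the filter on low counts in each comparison. Per kb of exon, Abca1 ranked first and Abcd2 second in all 4 groups. In Chow, Abca1 stood at 94.1 CPM per kb and Abcd2 at 84.2, against 23.5 for Abca8a, the next member. In HFD they stood at 71.0 and 40.8, against 39.5 for Abcg1. Abcg1 ranked 6th in Chow and 3rd in the other 3 groups. At the other end, 11 members stayed below 1 CPM in every library, among them the bile salt exporter Abcb11 and the intestinal and hepatic sterol pair Abcg5 and Abcg8. Abca13, a very large A-type protein, reached 1.45 CPM in 1 Chow library.

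Between HFD and Chow, 27 of 36 tested members were called, 12 higher and 15 lower. The background was high, since 59.8% of all 16216 genes tested were called, 29.8% higher and 30.0% lower. The median log2 fold change of the members was -0.21 against -0.03 over all genes, and their median absolute value was 0.57 against 0.64. At an unadjusted p under 0.05 there were 29 members, and 64.2% of all genes. Libraries of the groups did not overlap for 29 of 36 members and for 68.6% of all genes. These counts rest on the CPM, on which HFD lies higher, so Abcb8 is included at a fitted value of -0.03. The heatmap of levels shows that members of the same class moved in opposite directions.

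**Figure D1:**
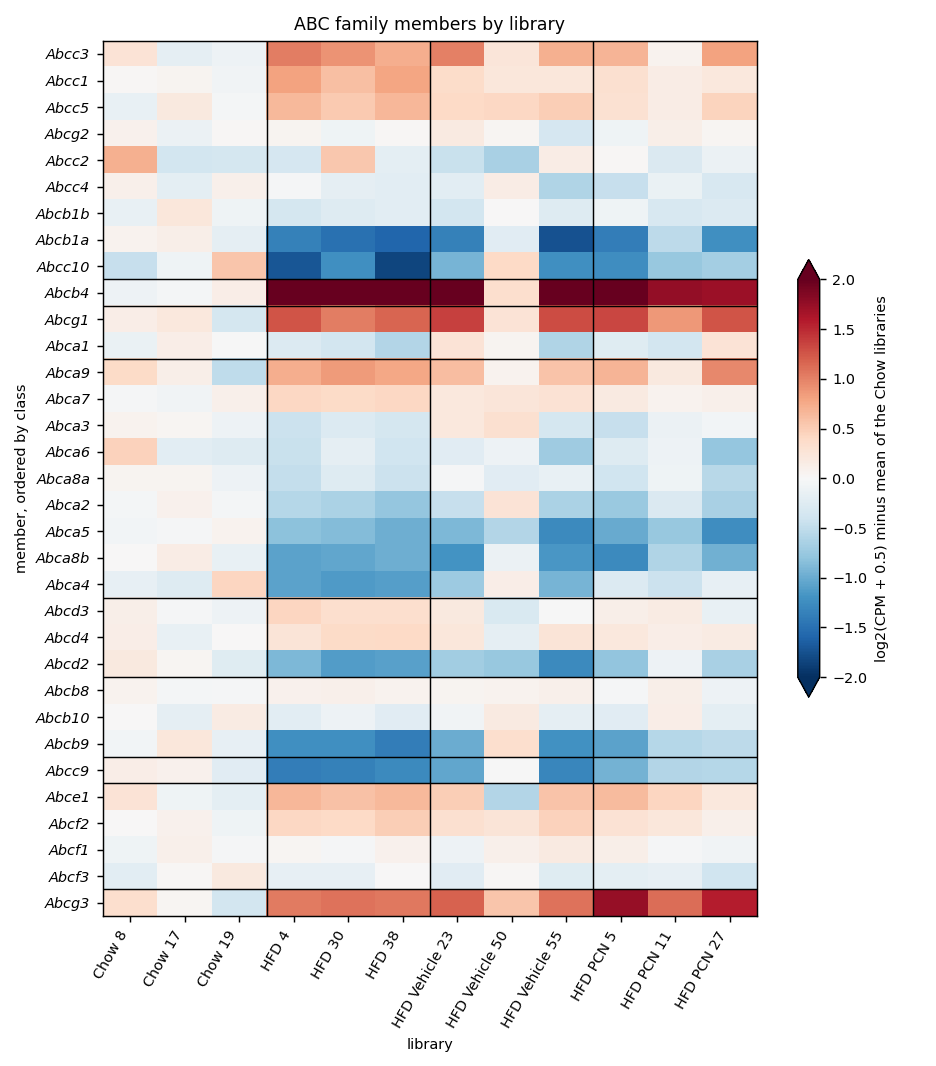
Level of 33 members tested in the diet comparison and listed in both tables (rows, grouped by class) in each library (columns), as log2(CPM + 0.5) minus the mean of the 3 Chow libraries, with the colour scale ending at -2 and 2. The HFD libraries share a pattern of raised and lowered members, and HFD Vehicle 50 lies nearer the Chow libraries than its group does.

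The drug and organic anion pumps split evenly, with 3 higher, 3 lower and 3 not called of 9 tested. That is 66.7% called, near the 59.8% of all genes tested, which also split evenly (29.8% higher, 30.0% lower). Abcb1a encodes a P-glycoprotein, the efflux pump that clears many lipophilic drugs and is typical of capillary endothelium. It stood at 42.6, 44.0 and 36.0 CPM in Chow 8, 17 and 19 and at 15.7, 14.1 and 13.3 CPM in HFD 4, 30 and 38. The groups did not overlap, and Abcb1a fell by 1.63 on the log2 scale (SE 0.12, adjusted p = 2.42e-05). Its paralogue Abcb1b, the other mouse P-glycoprotein gene, measured 41.9, 54.7 and 43.8 CPM in Chow and 36.5, 38.6 and 39.9 CPM in HFD. All 3 HFD libraries lay below the Chow ones, with a log2 change of -0.41 (SE 0.13, adjusted p = 0.0261), but the call was lost in 7 of 12 alternative analyses, with adjusted p from 0.0634 to 0.112 in those. Within a library, Abcb1a per kb over Abcb1b per kb was 1.17 to 1.48 in Chow and 0.485 to 0.628 in HFD.

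Abcb1a and Abcb1b are partly alike in sequence. Of the 50-base words in Abcb1a exons, 17.6% occur in another member, mostly Abcb1b, and 10.1% of its exon length overlaps Gm42686 on the opposite strand. The split of reads between them is uncertain to that extent, since the sources used here do not give the strand setting of the counting.

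Abcc10, a pump of lipophilic anions and taxanes, had 14.3, 18.7 and 29.6 CPM in Chow and 5.77, 8.28 and 5.24 CPM in HFD. Chow 19 was highest, the groups did not overlap, and the log2 change was -1.81 (SE 0.30, adjusted p = 0.00115). The glutathione-conjugate and leukotriene C4 exporter Abcc1 measured 95.3, 97.2 and 89.2 CPM in Chow against 164, 142 and 162 CPM in HFD. Every HFD library was above every Chow library, with a log2 change of 0.61 (SE 0.11, adjusted p = 0.0014). Abcc3, which exports glucuronides and bile acids, rose by 0.77 (SE 0.13, adjusted p = 0.00151), from 37.2, 27.2 and 28.8 CPM to 63.4, 57.7 and 51.5 CPM. The cyclic-nucleotide exporter Abcc5 was called higher by 0.48 (adjusted p = 0.0137), a call lost in 2 of 12 alternatives, without HFD 4 and without HFD 38.

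Abcg2, the breast cancer resistance protein, was not called. It measured 51.3, 44.3 and 48.8 CPM in Chow and 50.1, 45.2 and 48.9 CPM in HFD, with ranges that overlapped. The log2 change was -0.12 with a 95% interval from -0.35 to 0.10. Abcc4 had a value of -0.27 (interval -0.54 to 0.00) and Abcc2, at 0.534 to 1.67 CPM, one of -0.19 (interval -1.46 to 1.08).

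The largest increase among the members tested was that of Abcb4, a phosphatidylcholine translocator best known from the bile canaliculus. It stood at 2.69, 2.82 and 3.25 CPM in Chow and at 28.0, 32.2 and 25.5 CPM in HFD, a log2 change of 3.18 (SE 0.16, adjusted p = 7.26e-06). Every HFD library was far above every Chow library. Abcb4 lies next to the P-glycoprotein genes on the + strand of chromosome 5, with Abcb1a at 8660077 to 8748575, Abcb1b at 8798147 to 8866315 and Abcb4 at 8893717 to 8959231 (GRCm38). Of these 3 neighbours, Abcb4 rose and the other two fell. Abcb4 per kb over Abcb1a per kb was 0.0369 to 0.0528 in Chow libraries and 1.04 to 1.34 in HFD libraries, and 2.87% of its 50-base words occur in other genes. The bile salt exporter Abcb11 had 2 counts over the Chow libraries and 19 over the HFD libraries. The ratio after scaling was 4.77, with a 95% interval of 1.15 to 42.2 that covers counting error only. Libraries of the groups overlapped for Abcb11, at 0 to 0.145 CPM in Chow and 0.0595 to 0.393 CPM in HFD.

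**Figure D2:**
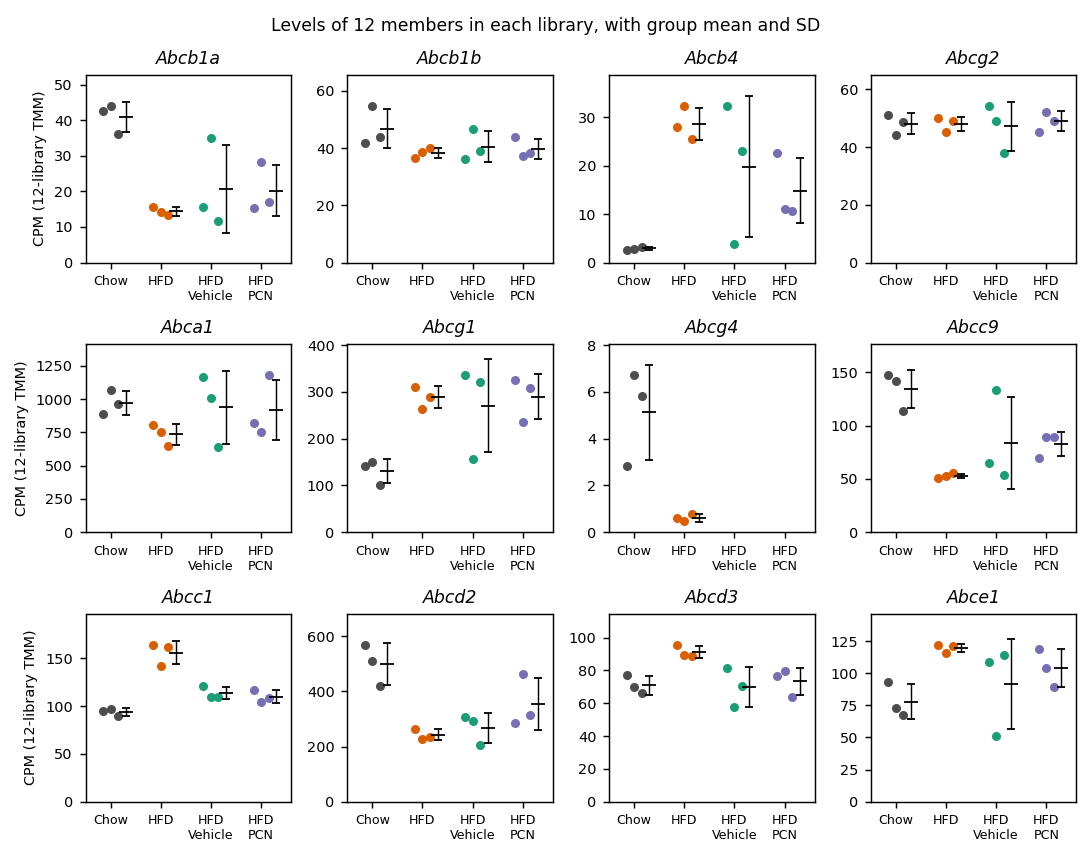
CPM of 12 members in each library (points, linear axis from 0) with the group mean and SD of 3 libraries beside them. Abcb1a, Abcc9 and Abcd2 are lower and Abcb4, Abcg1 and Abcc1 higher in HFD than in Chow, Abcg2 is level, and 1 HFD Vehicle library (HFD Vehicle 50) often lies near the Chow values. Abcg4 has no values in the injected groups.

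All 3 sterol exporters tested were called, in both directions, against 59.8% of all genes tested. Abca1 passes cholesterol and phospholipid to lipid-poor apolipoprotein A-I. It measured 890, 1069 and 965 CPM in Chow and 806, 752 and 648 CPM in HFD. The groups did not overlap and the log2 change was -0.53 (SE 0.16, adjusted p = 0.0200), but the call was lost in 4 of 12 alternatives, in which adjusted p ran from 0.0604 to 0.132. Abcg1, which loads cholesterol onto HDL particles, stood at 142, 150 and 101 CPM in Chow and 311, 264 and 289 CPM in HFD. Every HFD library was higher, and Abcg1 rose by 1.02 (SE 0.16, adjusted p = 0.000875). Abcg1 per kb over Abca1 per kb was 0.148 to 0.226 in Chow and 0.498 to 0.634 in HFD. Abcg4, a close relative of Abcg1 known mainly from brain, fell by 3.22 (SE 0.41, adjusted p = 0.000285), from 2.84, 6.71 and 5.85 CPM to 0.592, 0.464 and 0.774 CPM.

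Among 18 tested genes of sterol efflux and the liver X receptor (LXR) pathway, which induces Abca1 and Abcg1, 7 were called higher and 8 lower, with a median log2 change of -0.08. This list had 83.3% called, against 59.8% of all genes tested. The cholesteryl ester hydrolase Nceh1 rose by 4.18, the lysosomal lipase Lipa by 3.77, the cholesterol esterifying enzyme Soat1 by 3.65 and the lysosomal cholesterol transporter Npc1 by 1.43. Of the receptors, Nr1h3 (LXR alpha) fell by 0.45 and its partner Rxra by 1.05, while Nr1h2 and Rxrb were not called, at -0.02 and 0.05. Known LXR targets went both ways. Pltp rose by 2.42 and Lpcat3 by 0.43, Apoc1 fell by 1.68, Mylip by 1.13 and Srebf1 by 0.74, and Apoe was not called, at -0.14.

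All 9 other A-type transporters tested were called, 2 higher and 7 lower, with a median log2 change of -0.51. Of all genes tested 59.8% were called, 29.8% higher and 30.0% lower. Abca4, known from photoreceptors, stood at 2.62, 2.44 and 4.23 CPM in Chow and 1.18, 1.11 and 1.13 CPM in HFD, a change of -1.54 (SE 0.30, adjusted p = 0.00247). Abca2, an endolysosomal lipid transporter, went from 92.5, 101 and 93.0 CPM to 64.4, 61.4 and 55.9 CPM, and fell by 0.78. The surfactant lipid transporter Abca3 fell by 0.48 (178, 174 and 159 CPM against 126, 140 and 133 CPM), a call lost in 1 of 12 alternatives. Neither Abca2, Abca3 nor Abca4 overlapped between the groups. Abca7, a phospholipid transporter of macrophages and brain, was called higher by 0.28, a call lost in 4 of 12 alternatives.

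Abca5, Abca6, Abca8a, Abca8b and Abca9 form a tandem cluster on the minus strand of chromosome 11, between 109932190 and 110337716 (GRCm38). Abca8b fell by 1.17 (SE 0.11, adjusted p = 7.04e-05), from 61.4, 68.1 and 55.2 CPM in Chow to 28.8, 29.7 and 31.0 CPM in HFD. Abca5, a lysosomal member, fell by 1.02 (SE 0.11, adjusted p = 0.000103), from 37.8, 38.4 and 41.3 CPM to 22.0, 21.3 and 19.6 CPM. Neither gene overlapped between the groups. Abca8a was called lower by 0.51. Abca6 was called lower by 0.50 although its libraries overlapped, at 48.1 to 78.9 CPM in Chow and 42.1 to 50.4 CPM in HFD, and its call was lost in 6 of 12 alternatives. Abca9 went the other way and was called higher by 0.63 (175, 146 and 93.9 CPM against 223, 243 and 230 CPM), a call lost in 3 of 12 alternatives. Abca9 per kb over Abca8b per kb was 1.57 to 2.62 in Chow and 6.83 to 7.53 in HFD.

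**Figure D3:**
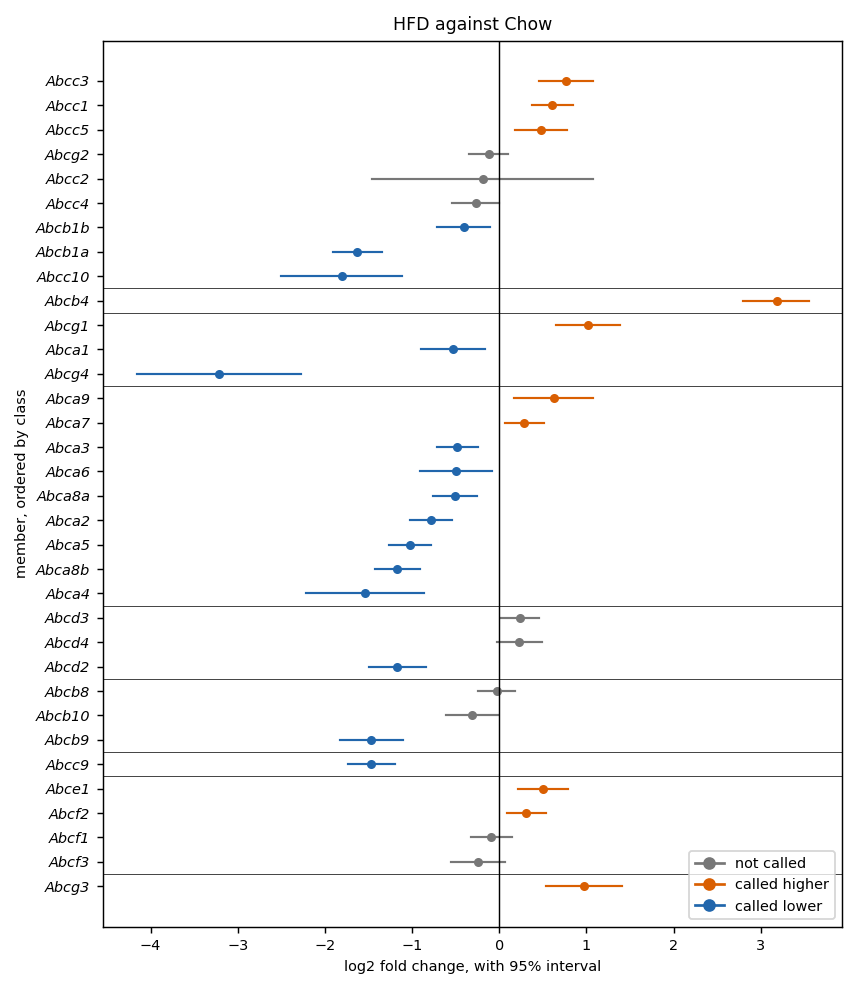
Log2 fold change of HFD against Chow (points) with its 95% interval (lines) for 34 members tested, grouped by class, from edgeR. Orange marks 10 members called higher, blue 15 called lower and grey 9 not called. Abcb4 at 3.18 and Abcg4 at -3.22 are farthest from 0.

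The peroxisomal half-transporters carry very-long-chain and branched acyl-CoA into peroxisomes. Abcd2 measured 569, 512 and 420 CPM in Chow and 265, 229 and 233 CPM in HFD, and fell by 1.17 (SE 0.14, adjusted p = 0.000234) with no overlap. Within a library, Abcd3 per kb over Abcd2 per kb was 0.122 to 0.142 in Chow and 0.325 to 0.351 in HFD. Abcd3, which also imports bile acid precursors, had 77.0, 69.7 and 66.0 CPM in Chow and 95.5, 89.2 and 89.0 CPM in HFD. These ranges did not overlap, but the log2 change of 0.24 (interval 0.02 to 0.46) was not called (adjusted p = 0.0564) by edgeR and was called by DESeq2 (0.31, adjusted p = 0.0221). The lysosomal cobalamin transporter Abcd4 was not called, at 0.23 (interval -0.03 to 0.49).

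Of 16 genes of peroxisome assembly and beta-oxidation, 2 were called higher and 8 lower. That is 62.5% called, near the 59.8% of all genes tested. Ppara, a fatty acid receptor that induces Abcd2 in liver, fell by 2.10, from 12.8, 12.5 and 16.2 CPM to 4.22, 3.07 and 3.15 CPM. The assembly factors Pex3, Pex19 and Pex11a fell by 0.83, 0.73 and 1.06.

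The B-type half-transporters act in mitochondria and lysosomes. Abcb9, a lysosomal peptide transporter, fell by 1.47 (SE 0.16, adjusted p = 0.000122), from 15.3, 18.7 and 14.2 CPM to 6.54, 6.57 and 5.83 CPM, with no overlap. The mitochondrial members Abcb8 and Abcb10 were not called, at -0.03 (interval -0.25 to 0.18) and -0.31 (interval -0.61 to -0.02). Abcb6 was too low to test between the diets, and 55.2% of its exon length overlaps Gm29253. For Abcb10 the overlap is 10.3%, with Gm45890 on the opposite strand. Among 11 haem and iron-sulphur partners, 2 were called higher and 4 lower, the latter including Glrx5 at -0.53, Slc25a37 at -0.37 and Nfs1 at -0.30. The share called was 54.5%, near the 59.8% of all genes tested. Tap1 and Tap2, B-type peptide transporters with other symbols, were not called, at 0.12 and -0.22.

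Abcc9 encodes SUR2, the sulfonylurea receptor of vascular and muscle KATP channels. It measured 147, 142 and 114 CPM in Chow and 50.9, 52.2 and 55.2 CPM in HFD. No library overlapped, and Abcc9 fell by 1.47 (SE 0.12, adjusted p = 3.02e-05). Kcnj8, the pore subunit that pairs with SUR2 in vascular cells, fell by 1.46, from 20.7, 14.3 and 15.7 CPM to 4.59, 7.93 and 7.56 CPM. The pancreatic receptor Abcc8 had 14 counts over the Chow libraries and 2 over the HFD libraries, a ratio after scaling of 0.0717 with a 95% interval of 0.00791 to 0.312 for counting error.

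Of the 4 ribosome-acting members 2 were called, both higher and none by more than 0.50. That is 50.0% called, against 59.8% of all genes tested. Abce1, which splits ribosomes after termination, stood at 93.2, 72.7 and 67.2 CPM in Chow and 122, 116 and 121 CPM in HFD. It rose by 0.50 (SE 0.12, adjusted p = 0.00783) with no overlap, a call lost in 1 of 12 alternatives. Abcf2 rose by 0.31 (41.5, 43.6 and 38.8 CPM against 55.1, 54.5 and 58.0 CPM), a call lost in 3 of 12 alternatives. The translation initiation factor Abcf1 was not called (80.7, 92.0 and 84.6 CPM against 88.2, 84.3 and 90.8 CPM), with a log2 value of -0.09 and an interval from -0.33 to 0.15. Abcf3 was not called either, at -0.24 (interval -0.55 to 0.07). Of 8 ribosome recycling and initiation partners, 4 were called higher, including Eif2s1 at 0.77, and 3 lower, namely Gcn1 at -0.87, Pelo at -0.73 and Hbs1l at -0.35. Calls thus covered 87.5% of these partners, against 59.8% of all genes tested.

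Abcg3, a rodent G-type half-transporter, rose by 0.97 (SE 0.19, adjusted p = 0.00287), from 6.33, 5.04 and 3.69 CPM in Chow to 10.6, 11.0 and 10.8 CPM in HFD. Its libraries did not overlap.

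Markers of several cell types moved between the same libraries, in which 59.8% of all genes tested were called. Endothelial markers were called lower in 7 of 7 genes and summed to 1221 to 1334 CPM in Chow and 447 to 455 CPM in HFD. Pericyte and vascular smooth muscle markers, a list that includes Kcnj8, were called lower in 4 of 8 and summed to 815 to 1165 CPM in Chow against 577 to 590 CPM in HFD. Adipocyte markers were called lower in 8 of 9 and summed to 15303 to 20555 CPM in Chow and 7351 to 9175 CPM in HFD. Macrophage markers were called higher in 6 of 8 and lower in 1, with sums of 686 to 1514 CPM in Chow and 6201 to 6968 CPM in HFD. Of 7 lipid-associated macrophage markers 6 were called higher, with sums of 5173 to 7278 CPM in Chow and 11543 to 12391 CPM in HFD. The median log2 change of these 7 was 5.13, and the 1 not called stood at -0.42. These sums therefore do not show the size of the change of most of the 7. Mast cell markers were called higher in 5 of 6 (18.8 to 33.9 CPM in Chow and 229 to 321 CPM in HFD), progenitor and fibroblast markers in 5 of 7 (768 to 1333 CPM in Chow and 2262 to 2691 CPM in HFD) and cell cycle genes in 6 of 6 (56.9 to 90.0 CPM in Chow and 478 to 582 CPM in HFD). None of the 5 mesothelial genes tested was called. The part of these markers in the changes of the ABC members was not tested.

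PCN activates the pregnane X receptor, which in liver and gut induces Abcb1a, Abcc2 and Abcc3. The gene of this receptor, Nr1i2, was too low to test, at 0 to 0.198 CPM across the 12 libraries. Against HFD Vehicle, 0 of 36 members were called in HFD PCN by edgeR (0% of 16563 genes) and 0 by DESeq2, which called 1 gene in all (0.00328%). At an unadjusted edgeR p under 0.05 there were 0 members, against 281 genes (1.70%). The members' median log2 value was -0.07 and their median absolute value 0.14, against 0.17 over all genes. Libraries of the groups did not overlap for 1 of 36 members, Abca7 at -0.14, and for 6.30% of all genes.

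Among the pumps, Abcb1a measured 15.6, 34.9 and 11.8 CPM in HFD Vehicle 23, 50 and 55 and 15.3, 28.3 and 17.1 CPM in HFD PCN 5, 11 and 27. One library of each group was high and the ranges overlapped, with a log2 value of -0.07 and an interval from -1.21 to 1.08. Abcb1b had 36.1, 46.5 and 38.9 CPM with vehicle and 43.7, 37.2 and 38.2 CPM with PCN (-0.05, interval -0.47 to 0.37). Abcc3 had 62.5, 36.3 and 50.7 CPM with vehicle and 49.5, 32.2 and 54.4 CPM with PCN (-0.15, interval -0.78 to 0.48). For Abcg2, with 54.3, 49.2 and 38.0 CPM against 45.4, 52.3 and 49.2 CPM, the value was 0.04 (interval -0.41 to 0.49). Abcc2 had 0.24 with an interval from -0.84 to 1.32, which includes a 2-fold increase.

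The smallest unadjusted p of a member was that of Abcg3 (0.0635), at 11.7, 7.44 and 11.0 CPM with vehicle and 17.6, 11.3 and 15.6 CPM with PCN. PCN 11 overlapped the vehicle libraries, and the log2 value was 0.55 (interval -0.04 to 1.15). Abcd2 followed at 306, 293 and 206 CPM against 286, 462 and 316 CPM (0.38, interval -0.30 to 1.06), with PCN 11 highest. Abca3 stood at 197, 213 and 133 CPM against 123, 156 and 164 CPM (-0.32, interval -0.92 to 0.29).

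For the sterol exporters, Abca1 ranged from 639 to 1170 CPM with vehicle and 756 to 1179 CPM with PCN, a log2 value of -0.05 (interval -0.86 to 0.76). Abcg1 had 335, 156 and 320 CPM against 326, 235 and 308 CPM, a value of 0.10 (interval -0.65 to 0.84). In 25 of 36 members the 95% interval lay within a 2-fold change either way, as it did in 53.2% of all genes. It reached beyond in the other 11, most widely in Abcb4 (-2.06 to 1.22).

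**Figure D4:**
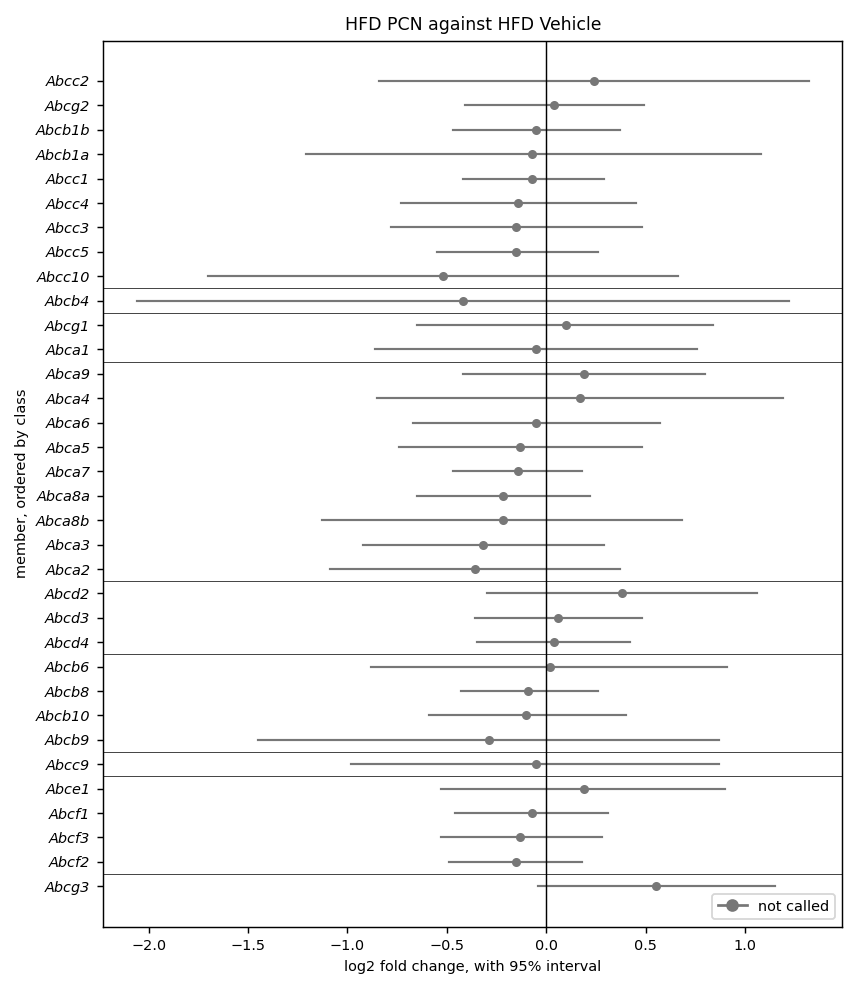
Log2 fold change of HFD PCN against HFD Vehicle (points) with its 95% interval (lines) for 34 members tested, grouped by class, from edgeR. No member is called, all intervals include 0, and that of Abcb4 is the widest.

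HFD Vehicle 50 stood apart in many members. Abcb4 measured 32.3 and 23.1 CPM in HFD Vehicle 23 and 55 but 3.81 CPM in HFD Vehicle 50, a Chow-like value, and 22.5, 11.1 and 10.7 CPM in the PCN libraries. Of 26 members called by diet and listed in both tables, HFD Vehicle 50 lay nearer Chow in 19, HFD Vehicle 23 in 4 and HFD Vehicle 55 in 2. PCN 5 did so in 5, PCN 11 in 15 and PCN 27 in 10. In the same order of libraries, the share among all diet-called genes was 86.2%, 9.57%, 12.4%, 8.16%, 43.3% and 36.4%. Endothelial markers summed to 1378 CPM in HFD Vehicle 50, above the Chow range, and macrophage markers to 1025 CPM, within it.

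**Figure D5:**
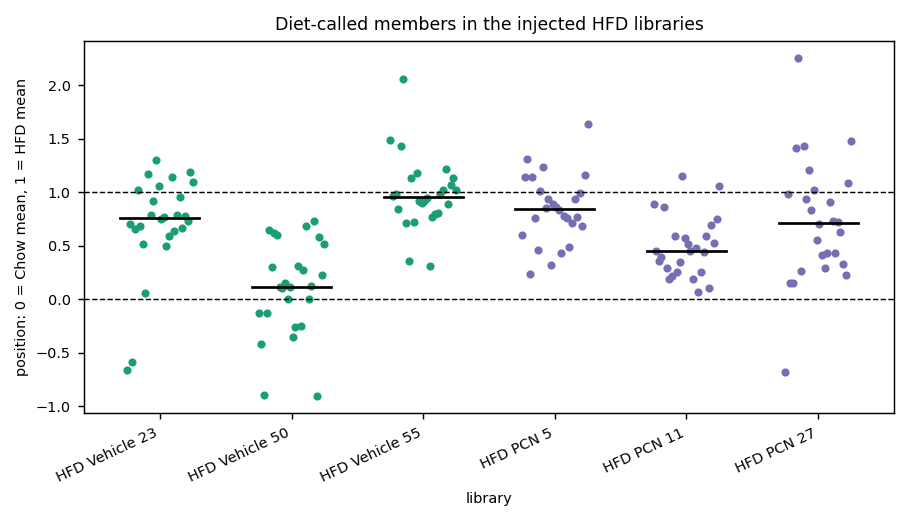
Position of each of the 26 diet-called members in the 6 injected libraries, on a log2(CPM + 0.5) scale where 0 is the Chow mean and 1 the HFD mean, with horizontal bars at the medians. The median is 0.12 in HFD Vehicle 50 and 0.45 in HFD PCN 11, and 0.71 to 0.96 in the other 4 libraries.

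Without HFD Vehicle 50, edgeR again called 0 members (0% of 16873 genes, with 898 or 5.32% at an unadjusted p under 0.05) and DESeq2 0 members of 44 genes called (0.266%). The values moved, however. Among the pumps, Abcb1a became 0.58, Abcb1b 0.10, Abcc2 0.04, Abcc3 -0.30 and Abcg2 0.10. Abca1 became 0.04, Abcg1 -0.16, Abca3 -0.15, Abca7 -0.11, Abcd2 0.48, Abcg3 0.41 and Abcc9 0.50. Abcb4 became -0.89, which edgeR did not call (adjusted p = 0.800). Of the 36 members, 17 changed sign when this library was left out, and 24 changed sign under at least 1 alternative, so no direction is drawn for members in this comparison.

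HFD Vehicle against HFD compares injected with uninjected obese mice. It shares its HFD libraries with the diet comparison and its vehicle libraries with the PCN comparison, and joins counts from both tables, so table and injection cannot be told apart. By edgeR 0 of 36 members were called (0% of 16781 genes) and by DESeq2 also 0, although DESeq2 called 91 genes (0.520%). At an unadjusted edgeR p under 0.05 there were 3 members, and 1639 genes (9.77%). Libraries did not overlap for 10 of 36 members and for 28.4% of all genes.

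Those 3 members were Abcc1, Abcc10 and Abcd3. Abcc1 stood at 164, 142 and 162 CPM in HFD and 121, 110 and 110 CPM in HFD Vehicle, so that all 3 injected libraries were lower (log2 value -0.41, interval -0.73 to -0.08, adjusted p = 0.485). PCN libraries lay at 117, 104 and 109 CPM, close to vehicle. Without HFD Vehicle 50 the value was -0.43 (edgeR adjusted p = 0.0772, with 172 genes or 0.993% called) and by DESeq2 -0.44 (adjusted p = 0.00519, with 708 genes or 4.81% called), the only member called there. Abcd3 had 81.4, 57.4 and 70.5 CPM with vehicle, all below the HFD libraries (-0.34, adjusted p = 0.485), and -0.26 without HFD Vehicle 50 (adjusted p = 0.205). Abcc10, at 10.2, 26.5 and 8.27 CPM with vehicle, gave 1.30 with HFD Vehicle 50 and 0.52 without it.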

How the data were processed

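Raw counts per gene were deposited by the authors in 2 tables, one of uninjected and one of injected mice. Per the submitters' processing notes HISAT2, HTSeq, DESeq2 and the GRCm38 (mm10) build were used, and versions and counting strand are not given in the sources used here. The authors' own fold changes and p-values were not used. Genes were kept by filterByExpr, scaled by TMM and tested with edgeR 4.0.16 in R 4.3.3 (quasi-likelihood F test, 6 libraries a comparison, Benjamini-Hochberg over all genes tested, threshold 0.05). Levels are CPM with TMM factors over 12 libraries. Exon lengths and overlaps come from GENCODE, and start windows from RefSeq. Named members were, in each class, up to 4 called by diet with the smallest p, the 3 smallest p of each other comparison, and a fixed list. Alternatives were DESeq2 1.42.0, other scaling and filters, a 12-library fit and leaving out each library. Members, classes, lists and markers were chosen with earlier results of these data known. No batch is given in the labels, and depth of 11090117 to 27408092 counts limits members of few counts. The values of 2 members and 1 pathway gene are not reported here, although counts over all members include them. Intervals on summed counts cover counting error only.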

Additional observations from a re-analysis of the deposited data

How the results depend on the processing

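In the diet comparison, 18 of the 27 called members were called under every one of 12 alternatives that held them, and no called member changed direction. Leaving out 1 library at a time kept 20 to 27 of them. The count called higher ran from 8 to 13 and the count called lower from 10 to 15. Calls of Abcb1b, Abca6, Abca1, Abca7, Abca9, Abcf2, Abcc5, Abca3 and Abce1 were lost under at least 1 alternative, and Abcd3, Abcc8, Abcf3, Abcb10 and Abcc4 were called under at least 1. The causes were not tested. In both injected comparisons no member was called under any alternative, except Abcc1, so that the count called lower in HFD Vehicle against HFD was 1 by DESeq2 without HFD Vehicle 50, an analysis chosen after the data were seen. Fold changes of named members that were not called crossed 0, and all values here are log2. For HFD PCN against HFD Vehicle the ranges over left-out libraries were Abca1 -0.28 to 0.12, Abca2 -0.57 to 0.01, Abca4 -0.10 to 0.69, Abca5 -0.32 to 0.10, Abca8b -0.43 to 0.28, Abcb1a -0.39 to 0.58, Abcb1b -0.14 to 0.10, Abcb4 -0.89 to 0.13, Abcb9 -0.60 to 0.43, Abcc10 -0.84 to 0.22, Abcc3 -0.30 to 0.05, Abcc9 -0.32 to 0.50, Abcd3 -0.04 to 0.17, Abce1 -0.08 to 0.35, Abcg1 -0.16 to 0.27, Abcg2 -0.12 to 0.14. By DESeq2 without HFD Vehicle 50 the values were Abca1 0.04, Abca2 0.01, Abca5 0.09, Abca8b 0.28, Abcb1a 0.58, Abcb1b 0.09, Abcb9 0.43, Abcc10 0.22, Abcc9 0.50, Abcd3 -0.04, Abce1 -0.08, Abcg1 -0.17, and with no filter on low counts Abcc9 0.01. For HFD Vehicle against HFD the ranges were Abca5 -0.19 to 0.23, Abca8b -0.16 to 0.59, Abcb1a -0.07 to 0.90, Abcb1b -0.03 to 0.24, Abcf2 -0.09 to 0.00, Abcg1 -0.22 to 0.19, Abcg2 -0.06 to 0.17, Abcg3 -0.16 to 0.07. By DESeq2 without HFD Vehicle 50 the values were Abca5 -0.19, Abca8b -0.16, Abcb1a -0.07, Abcb1b -0.03, Abcg1 0.19, Abcg2 -0.06, Abcg3 0.07, with no filter Abca5 -0.01, Abcg2 -0.03, and by DESeq2 with all libraries Abcg2 -0.00. No paired analysis was possible because the library numbers differ between all groups.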
